A study of Rattus norvegicus with 17 samples.

Results

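Bone morphogenetic proteins (BMPs) are secreted ligands that bring type I and type II receptor kinases together on the cell surface. The type I receptor then phosphorylates SMAD1, SMAD5 and SMAD9, which enter the nucleus with SMAD4 and switch on target genes, among them the inhibitor of DNA binding (ID) genes and the inhibitory SMAD gene Smad6. ID proteins lack a DNA-binding region and hold E proteins, a class of helix-loop-helix transcription factors, away from DNA. In blood vessels the pathway acts in both endothelial and smooth muscle cells. The genes described here were 10 members of this pathway, found on the arrays by gene symbol, namely the ligands Bmp2, Bmp4 and Bmp6, the receptors Bmpr1a, Bmpr2 and Acvrl1, the inhibitory Smad6, and Id1, Id2 and Id3. All 10 had a probe set, 1 each, out of 13196 genes tested.

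Gene expression was measured in middle cerebral arteries (MCAs) of young adult female Wistar rats, with proestrus excluded, by Affymetrix whole-transcript rat arrays, each hybridized with RNA of 1 artery. Transient MCA occlusion (tMCAO) was performed under isoflurane anesthesia by a filament that was later withdrawn, and the arteries were removed 3 h after reperfusion. The groups were occluded MCAs (5 arrays), the opposite non-occluded MCAs of the operated rats (6 arrays, of which 5 came from the same rats as the occluded MCAs), and control MCAs from 6 rats that were not operated. No sham operation was among the groups, so surgery and anesthesia cannot be told apart from occlusion in a comparison with control MCAs. The external and common carotid arteries were permanently tied for the filament, and the labels mark occluded MCAs R and non-occluded MCAs L. Carotid ligation and side therefore cannot be told apart from occlusion in a comparison with non-occluded MCAs. Rats are named as in the labels, F12 for example, and values are log2 expression after robust multi-array averaging (RMA), so that a difference of 1 is a doubling. The groups were compared with limma, and adjusted p is the Benjamini-Hochberg value over all probe sets with a threshold of 0.05.

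Array medians were 7.36 to 7.49, and no array stood apart by this measure. The smooth muscle markers of the vessel wall were high in each group, and the mean of 5 of them was 11.74 to 12.04 in occluded, 11.90 to 12.29 in non-occluded and 11.93 to 12.31 in control MCAs. Of these markers 1 rose and 3 fell in occluded compared with control MCAs. The mean of 6 endothelial markers was 8.82 to 9.76 in occluded, 9.48 to 10.04 in non-occluded and 9.54 to 10.01 in control MCAs, and Tek, Tie1 and Cldn5 fell in occluded compared with control MCAs. The astrocyte marker Gfap rose by 2.46 on the log2 scale in the same comparison (SE 0.29, adjusted p = 2.5e-06), while the mean of 5 astrocyte markers was 7.73 to 9.09 in occluded and 6.62 to 8.41 in control MCAs. Fewer cells of a type and less RNA per cell cannot be told apart in whole arteries.

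In the occluded MCAs 6 of the 10 genes differed from control MCAs. Id3, Bmpr2, Bmpr1a and Acvrl1 rose, Id2 and Smad6 fell, and the ligands did not pass the test. Over all genes tested the same test called 42.1% in this comparison, 19.2% higher and 22.9% lower. Compared with the non-occluded MCAs, 3 of the 10 genes rose (Id3, Bmpr2 and Bmpr1a) and 3 fell (Smad6, Id2 and Id1), against 32.9% of all genes called, 17.1% higher and 15.8% lower. None of the 10 genes passed the limma test in non-occluded compared with control MCAs, where 3.91% of all genes did (2.18% without non-occluded F15), 1.79% higher and 2.12% lower. Over all genes this split was 236 higher and 280 lower, against 300 higher and 164 lower with arrays centered on their median. In that comparison 4 of them (Bmp4, Acvrl1, Id1 and Id2) had an unadjusted p under 0.05, as did 19.1% of all genes, and significance analysis of microarrays (SAM) at a q of 0 called 0 of them and 1.35% of all genes (0.834% higher and 0.515% lower). No gene of the 10 was free of overlap there, against 1.35% of all genes higher and 1.81% lower. In both comparisons of occluded MCAs SAM called Id3 and Bmpr2 higher and Id2 lower, and none of the other 7 genes. Its calls over all genes were 16.1% compared with control MCAs (8.53% higher and 7.56% lower) and 11.8% compared with non-occluded MCAs (7.81% higher and 4.01% lower). Both comparisons with control MCAs share the control arrays, and both comparisons of occluded MCAs share the occluded arrays. The median absolute log2 change over the 10 genes was 0.36 in occluded compared with control MCAs and 0.38 compared with non-occluded MCAs, beside 0.19 and 0.16 over all genes. This is no test of the 10 genes, which were chosen with earlier results of these data known. All but Id2 also lay above the dimmest 25% of probe sets. With that dimmest 25% left out, limma called 51.2% of all genes compared with control and 41.6% compared with non-occluded MCAs.

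**Figure D1:**
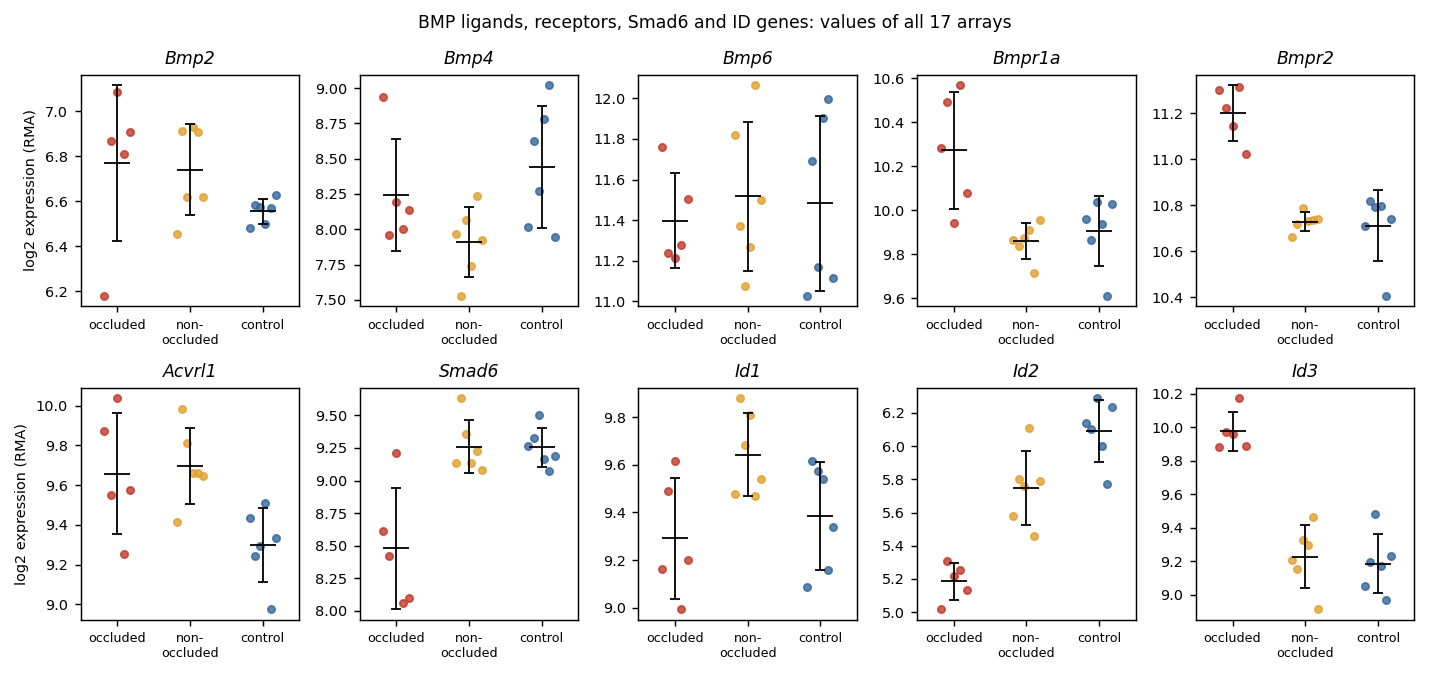
Log2 expression (RMA, y axis) of the 10 genes in occluded (5 arrays), non-occluded (6) and control (6) MCAs, with 1 point per array and bars at the mean ± SD. The occluded arrays of Id3 and Bmpr2 lie above all other arrays and those of Id2 below all other arrays.

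**Figure D2:**
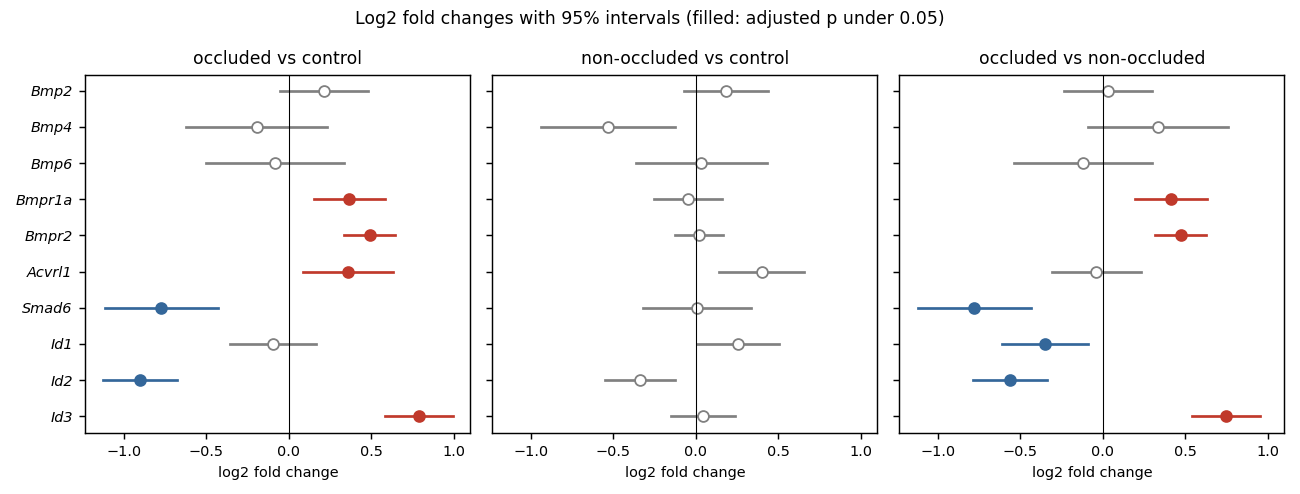
Log2 fold change (x axis) of each of the 10 genes in the 3 comparisons, with 95% intervals from limma and filled points where adjusted p was under 0.05. In occluded compared with control MCAs 6 points are filled, in non-occluded compared with control MCAs none, and in occluded compared with non-occluded MCAs 6.

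The ID genes moved in different directions. The 3 promoters are shown because these neighbors in function differed in response, Id3 being higher and Id2 lower in the same arteries. Each window runs from 250 to 40 bases before the start of the promoter entry, on the gene's own strand (build GRCr8). The windows were cut to end before the outermost RefSeq start of each of the 3 genes. Capitals mark the CCAAT box, the core of the TATA box (TATAA) and the GC box (GGGCGG) on either strand. The windows are chr3:161671314-161671524 on the plus strand for Id1, chr6:47471035-47471245 on the minus strand for Id2 and chr5:153656041-153656251 on the plus strand for Id3.
Id1: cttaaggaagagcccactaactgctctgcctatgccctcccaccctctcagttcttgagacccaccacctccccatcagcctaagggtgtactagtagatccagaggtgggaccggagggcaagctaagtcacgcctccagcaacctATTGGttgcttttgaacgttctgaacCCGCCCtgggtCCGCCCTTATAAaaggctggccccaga
Id2: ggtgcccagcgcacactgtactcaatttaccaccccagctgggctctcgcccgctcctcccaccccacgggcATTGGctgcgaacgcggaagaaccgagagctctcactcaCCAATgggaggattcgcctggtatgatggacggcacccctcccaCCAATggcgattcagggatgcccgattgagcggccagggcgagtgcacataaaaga
Id3: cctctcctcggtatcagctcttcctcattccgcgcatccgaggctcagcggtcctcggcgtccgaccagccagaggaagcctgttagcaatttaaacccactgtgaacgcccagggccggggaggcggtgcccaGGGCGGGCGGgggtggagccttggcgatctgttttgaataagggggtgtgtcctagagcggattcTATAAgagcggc
The Id1 window held 1 CCAAT, 2 GGGCGG and 2 TATAA, the last being overlapping matches on opposite strands. The Id2 window held 3 CCAAT and no TATAA or GGGCGG, and the Id3 window held 2 overlapping GGGCGG, 1 TATAA and no CCAAT. These letters occurred in many windows of the same length, CCAAT in 30.2%, TATAA in 20.4% and GGGCGG in 26% of 33469. The SMAD motifs GGCGCC (7.05% of windows) and CAGAC (37.9%) were searched on both strands too and were not in these 3 windows, while the E-box CANNTG (59.7%) was in the Id2 window only, with 1 match. Bases nearer to the start and further upstream were not searched, so a motif absent from a window can still lie there. The motifs were chosen after the windows had been read, and 7 of the 10 genes had a promoter in the table.

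Id3 is an ID gene with a known response to BMP ligands in endothelial and muscle cells. Its occluded arrays read 9.96 (rat F12), 9.97 (F10), 9.88 (F8), 10.17 (F15) and 9.89 (F33). The non-occluded arrays ran from 8.91 to 9.46 (median 9.25) and the control arrays from 8.97 to 9.48 (median 9.19). All 5 occluded arrays were therefore above all 12 other arrays. The log2 change was 0.79 (SE 0.10, 1.73-fold, adjusted p = 4.3e-06) compared with control MCAs. Against non-occluded MCAs it was 0.75 (SE 0.10, 1.68-fold, adjusted p = 1.3e-05). The non-occluded arrays lay among the control arrays, with a difference of 0.04 (95% interval -0.15 to 0.24). A non-overlap in the higher direction was found for 12.6% of all genes in occluded compared with control MCAs and for 11.6% compared with non-occluded MCAs.

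Id2, another inhibitor of E proteins, went the other way. Its values were 5.21 (F12), 5.30 (F10), 5.02 (F8), 5.25 (F15) and 5.13 (F33) in occluded MCAs. They ran from 5.46 to 6.11 (median 5.77) in non-occluded MCAs and from 5.77 to 6.29 (median 6.12) in control MCAs. The occluded arrays were the lowest 5 of the 17, and the non-occluded arrays overlapped the control arrays. Id2 fell by 0.90 on the log2 scale compared with control MCAs (SE 0.11, 1.87-fold lower, adjusted p = 2.5e-06). Compared with non-occluded MCAs it fell by 0.56 (SE 0.11, 1.48-fold lower, adjusted p = 0.00049). A non-overlap in the lower direction was found for 12.6% and 8.67% of all genes in these comparisons. The change was -0.34 in non-occluded compared with control MCAs (SE 0.10, adjusted p = 0.073), and it passed the threshold without control rat F26 (adjusted p = 0.031) or without non-occluded rat F15 (adjusted p = 0.029). The mean level of Id2 over all arrays, 5.70, was in the dimmest 25% of probe sets (under 6.37), and its probe set spans 15449 bases in the array annotation, against a RefSeq gene of 1834 bases. What the further bases cover was not tested.

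Id1, the ID gene best known as a direct target of the endothelial receptor ALK1, overlapped between all groups. The occluded arrays read 9.62 (F12), 9.49 (F10), 9.16 (F8), 8.99 (F15) and 9.20 (F33). The other arrays ran from 9.47 to 9.88 (median 9.61) in non-occluded MCAs and from 9.09 to 9.62 (median 9.44) in control MCAs. The non-occluded group was thus the highest of the 3, and the occluded and control groups covered nearly the same range. Id1 fell by 0.35 on the log2 scale in occluded compared with non-occluded MCAs (SE 0.12, 1.28-fold lower, adjusted p = 0.038). That call was lost without any 1 of 6 arrays (non-occluded F10, F12 and F15, occluded F8, F15 and F33), where adjusted p was 0.065 to 0.12. Compared with control MCAs the change was -0.09 in occluded MCAs (95% interval -0.36 to 0.17, adjusted p = 0.59) and 0.26 in non-occluded MCAs (95% interval 0.01 to 0.51, adjusted p = 0.25).

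Bmpr2 encodes the type II receptor that phosphorylates the type I receptors, and it is mutated in human pulmonary arterial hypertension. Its occluded arrays read 11.14 (F12), 11.22 (F10), 11.30 (F8), 11.31 (F15) and 11.02 (F33). In non-occluded MCAs the values were 10.66 to 10.79 (median 10.73), and in control MCAs 10.41 to 10.82 (median 10.77). Like Id3, the occluded arrays stood above all others. Bmpr2 rose by 0.49 on the log2 scale compared with control MCAs (SE 0.07, 1.4-fold, adjusted p = 3.4e-05) and by 0.47 compared with non-occluded MCAs (SE 0.07, 1.39-fold, adjusted p = 7.7e-05).

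Bmpr1a encodes the type I receptor ALK3, which binds BMP2 and BMP4. The occluded values were 9.94 (F12), 10.49 (F10), 10.29 (F8), 10.57 (F15) and 10.08 (F33). The non-occluded arrays ran from 9.72 to 9.95 (median 9.87) and the control arrays from 9.61 to 10.04 (median 9.95). Only the occluded artery of rat F12 fell within the range of the other groups. The log2 change was 0.37 compared with control MCAs (SE 0.10, 1.29-fold, adjusted p = 0.0081) and 0.41 compared with non-occluded MCAs (SE 0.10, 1.33-fold, adjusted p = 0.0049).

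Acvrl1 encodes the type I receptor ALK1, which is found mainly in endothelial cells and is mutated in human hereditary hemorrhagic telangiectasia. The occluded arrays read 10.04 (F12), 9.55 (F10), 9.87 (F8), 9.26 (F15) and 9.57 (F33). Values were 9.41 to 9.99 (median 9.66) in non-occluded MCAs and 8.98 to 9.51 (median 9.32) in control MCAs. The control group was the lowest of the 3, and its arrays overlapped both other groups. Acvrl1 rose by 0.36 on the log2 scale in occluded compared with control MCAs (SE 0.13, 1.28-fold, adjusted p = 0.033). This call did not hold without control F16 (adjusted p = 0.056), control F26 (0.075), occluded F8 (0.087) or occluded F12 (0.10), nor when only the 2 groups compared were fitted (adjusted p = 0.052). In non-occluded compared with control MCAs the change was 0.40 (SE 0.12, adjusted p = 0.084), and it passed when only the 2 groups were fitted (adjusted p = 0.049). The interval of the difference between occluded and non-occluded MCAs was -0.31 to 0.23.

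Smad6 encodes an inhibitory SMAD that is induced by BMP signaling and blocks the type I receptors in turn. The occluded arrays read 9.21 (F12), 8.42 (F10), 8.61 (F8), 8.06 (F15) and 8.10 (F33). The non-occluded arrays ran from 9.08 to 9.63 (median 9.18) and the control arrays from 9.07 to 9.51 (median 9.23). The other 4 occluded arrays lay below both groups, while that of F12 lay among them. Smad6 fell by 0.78 on the log2 scale compared with control MCAs (SE 0.16, 1.71-fold lower, adjusted p = 0.0009) and by 0.78 compared with non-occluded MCAs (SE 0.16, 1.72-fold lower, adjusted p = 0.0012). Without occluded F12 it fell by 0.96 in each comparison (adjusted p = 9.6e-06 and 1.3e-05).

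The mean of the 6 endothelial markers also varied among the occluded arrays. It was 9.76 in the occluded artery of F12, the occluded array in which Smad6, Acvrl1 and Id1 were also highest. It was 9.14 in F10, 9.13 in F8, 8.82 in F15, where Smad6, Acvrl1 and Id1 were lowest. In F33 the markers were second highest at 9.28, while Smad6 was second lowest at 8.10. The other groups did not all follow this order. The control array of F26 had markers at 9.84 but the lowest control values of Acvrl1 (8.98) and Smad6 (9.07). Non-occluded F19 had the highest markers of its group (10.04) but the lowest Id1 (9.47). Acvrl1 was higher in occluded than in control MCAs, while the median of the marker means was 9.14 against 9.77. The part of endothelial cell number in these results was not tested.

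**Figure D3:**
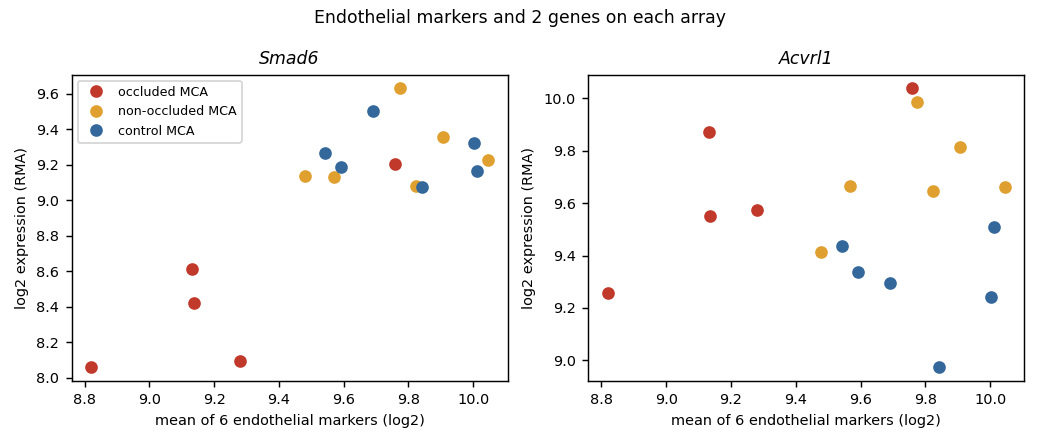
Log2 expression of Smad6 and Acvrl1 (y axes) against the mean log2 expression of 6 endothelial markers (x axis), with 1 point per array in occluded, non-occluded and control MCAs. The occluded artery at 9.76 on the x axis is that of rat F12, in which Smad6 was 9.21 and Acvrl1 10.04.

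None of the 3 ligands passed the test. Bmp2, a ligand of ALK3, read 7.08 (F12), 6.87 (F10), 6.18 (F8), 6.81 (F15) and 6.91 (F33) in occluded MCAs. The values were 6.46 to 6.93 (median 6.77) in non-occluded and 6.48 to 6.63 (median 6.57) in control MCAs. The occluded artery of F8 was the lowest of all 17 and the other 4 were above every control array. The change compared with control MCAs was 0.22 (95% interval -0.05 to 0.48, adjusted p = 0.19), and without occluded F8 it was 0.36 with an adjusted p of 0.0043.

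Bmp4, a further ligand of ALK3, read 8.19 (F12), 7.96 (F10), 8.94 (F8), 8.00 (F15) and 8.13 (F33) in occluded MCAs. It ran from 7.53 to 8.23 (median 7.95) in non-occluded and from 7.95 to 9.02 (median 8.45) in control MCAs. All groups overlapped. The change in occluded MCAs was -0.20 compared with control MCAs (SE 0.20, adjusted p = 0.48) and 0.34 compared with non-occluded MCAs (SE 0.20, adjusted p = 0.23). Bmp4 was higher in the occluded artery in 5 of 5 rats, by 0.97 in F8 and by 0.13 to 0.43 in the others. With the rat as a fixed replicate block the difference between both arteries became 0.40 (SE 0.12, adjusted p = 0.026), while with a random block it did not pass (adjusted p = 0.10). In non-occluded compared with control MCAs it was -0.53 (SE 0.19, adjusted p = 0.14).

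Bmp6, a ligand known in the liver for its control of iron uptake, ran from 11.21 to 11.76 in occluded, 11.08 to 12.07 in non-occluded and 11.03 to 12.00 in control MCAs. The range of the occluded arrays lay within that of the control arrays. Its change in occluded MCAs was -0.09 compared with control MCAs (95% interval -0.50 to 0.33) and -0.12 compared with non-occluded MCAs (95% interval -0.54 to 0.30).

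The labels name both arteries of 5 rats, which allowed differences within a rat. Id3 was higher in the occluded artery in 5 of 5 rats, by 0.63 to 0.97, and Bmpr2 in 5 of 5, by 0.28 to 0.64. Bmpr1a was also higher in 5 of 5 rats, with its smallest differences in F12 (0.07) and F33 (0.13). Id2 was lower in 5 of 5 rats, with differences of -0.86 to -0.49. Smad6 (-1.21 to -0.15) and Id1 (-0.81 to -0.07) were lower in 5 of 5 rats as well, each with its smallest change in F12. Bmp2, Bmp6 and Acvrl1 were higher in some rats and lower in others. The share of all genes with the same direction in all 5 rats was not counted. With the rat as a fixed replicate block limma called 38.3% of all genes.

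**Figure D4:**
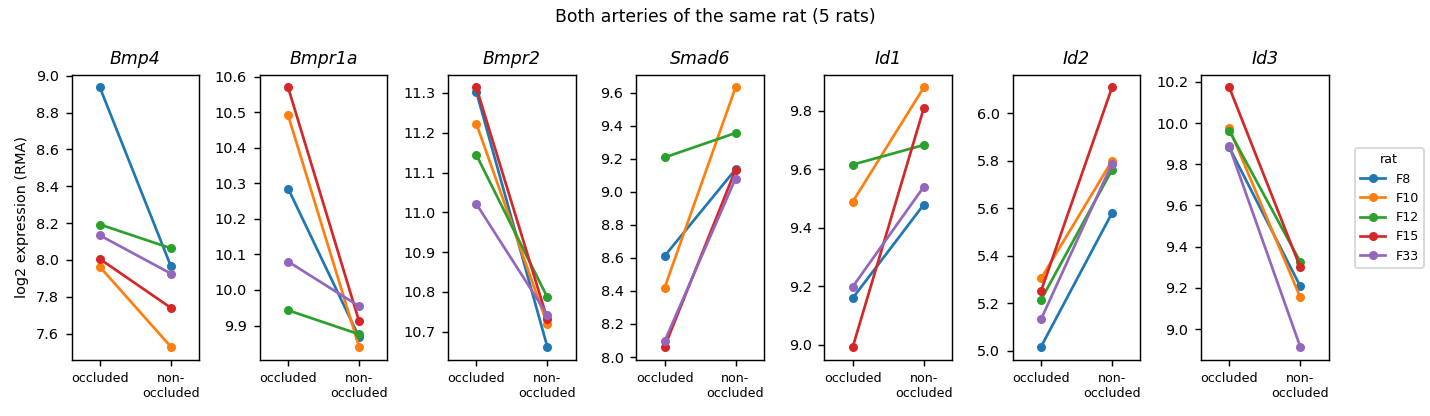
Log2 expression (y axes) in both MCAs of the same rat (occluded on the left of each panel), with 1 line per rat (5 rats), for the 7 genes that changed in the same direction in every rat. The lines of Bmp4, Bmpr1a, Bmpr2 and Id3 run down to the non-occluded artery and those of Smad6, Id1 and Id2 run up.

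The rest of the pathway was read from a list of 59 other genes, of which 47 were measured on every array. In occluded compared with control MCAs 5 of them rose and 17 fell, so that 46.8% were called, beside 42.1% of all genes. Compared with non-occluded MCAs 4 rose and 10 fell (29.8%, beside 32.9%), and in non-occluded compared with control MCAs 1 rose and 3 fell (8.51%, beside 3.91%). The median log2 change over the 47 genes was -0.13 in occluded compared with control MCAs, against -0.02 over all genes. In that comparison 19.2% of all genes were called higher and 22.9% lower. By role, 33.3% of other ligands and of other receptors were called, 44.4% of other targets and 46.2% of inhibitors outside the cell. The share was 50% for the SMADs that carry the signal, and 66.7% for inhibitors in or at the cell and for E proteins.

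Among the SMADs that carry the signal, 1 of 4 rose and 1 fell. Smad1 was 8.46 to 8.92 in occluded MCAs, against 7.99 to 8.21 in non-occluded and 7.85 to 8.14 in control MCAs. Smad9 was 5.52 to 6.10 in occluded MCAs, against 6.94 to 7.62 in non-occluded and 6.98 to 7.74 in control MCAs. The occluded arrays of both genes stood clear of the other groups, in opposite directions. Over all genes, 12.6% stood clear of control MCAs in each direction, and 11.6% higher and 8.67% lower of non-occluded MCAs. The log2 change of Smad1 was 0.71 (SE 0.09, adjusted p = 3.1e-06) compared with control and 0.59 compared with non-occluded MCAs (SE 0.09, adjusted p = 3.7e-05). Smad9 fell by 1.51 on the log2 scale compared with control MCAs (SE 0.15, 2.84-fold lower, adjusted p = 4.2e-07) and by 1.25 compared with non-occluded MCAs (SE 0.15, adjusted p = 5.9e-06). Its occluded mean, 5.87, lay under the limit of the dimmest 25% of probe sets (6.37), while the non-occluded (7.12) and control (7.38) means lay above it. Smad5, the third of these SMADs, and Smad4, their shared partner, did not pass, with changes compared with control MCAs of -0.01 (95% interval -0.15 to 0.13) and -0.03 (-0.12 to 0.06).

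Of 6 inhibitors inside the cell or at its surface, 4 fell and none rose in occluded compared with control MCAs. Tob1, which binds SMADs and limits BMP signaling in mouse bone cells, fell by 1.12 on the log2 scale (SE 0.10, 2.18-fold lower, adjusted p = 1e-07). Its values were 9.02 to 9.59 in occluded, 9.91 to 10.33 in non-occluded and 10.23 to 10.54 in control MCAs. Smad7, the other inhibitory SMAD, fell by 0.49 compared with control MCAs (SE 0.12, adjusted p = 0.0034), and Smurf1, a ubiquitin ligase that marks SMADs for breakdown, fell by 0.38 (SE 0.12, adjusted p = 0.018, or 0.058 without occluded F8). Compared with non-occluded MCAs, Tob1 fell by 0.87 (SE 0.10, adjusted p = 3.5e-06) and the other 5 did not pass. Smad7 (-0.28, adjusted p = 0.093) passed there with rats as a random (adjusted p = 0.037) or fixed (0.024) replicate block, when only the 2 groups compared were fitted (0.042) and without occluded F12 (0.043). Smurf1 (-0.28, adjusted p = 0.087) passed with the random (0.017) and the fixed block (0.0014) and without non-occluded F19 (0.0062). Bambi, a receptor without a kinase, was lower in both comparisons with control MCAs, by 0.26 in occluded MCAs (SE 0.09, adjusted p = 0.024) and 0.36 in non-occluded MCAs (SE 0.08, adjusted p = 0.024). Its call in occluded MCAs was lost without control F21, occluded F8 or occluded F15 (adjusted p = 0.058 to 0.078) and with cyclic loess scaling (0.064). That in non-occluded MCAs was lost without control F21 or non-occluded F8 (0.051 and 0.054) and with arrays centered on their median (0.059).

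Of 13 inhibitors outside the cell, 2 rose and 4 fell in occluded compared with control MCAs. Twsg1, which binds BMPs together with chordin, fell by 0.55 on the log2 scale compared with control MCAs (SE 0.07, adjusted p = 1.1e-05) and by 0.48 compared with non-occluded MCAs (SE 0.07, adjusted p = 7.2e-05). Mgp, a matrix protein that binds BMP2 and BMP4 and is abundant in arteries, rose by 0.39 (SE 0.06, adjusted p = 4.3e-05) and 0.18 (SE 0.06, adjusted p = 0.027, or 0.076 without occluded F15 and 0.098 with arrays centered on their median). Fst, which encodes follistatin, was lower than in control MCAs in both arteries of the operated rats, by 0.32 in occluded MCAs (SE 0.07, adjusted p = 0.0012) and by 0.35 in non-occluded MCAs (SE 0.07, adjusted p = 0.0075), but it was among the dimmest 25% of probe sets.

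Among 6 other ligands 2 fell and none rose. Bmp5 fell by 0.81 on the log2 scale compared with control MCAs (SE 0.17, adjusted p = 0.00086). Bmp15, known as an oocyte ligand, fell by 0.78 (SE 0.10, adjusted p = 4.1e-06). Its values were low, 6.04 to 6.54 in occluded, 6.75 to 7.00 in non-occluded and 6.90 to 7.41 in control MCAs. The occluded mean, 6.33, lay under the limit of the dimmest probe sets (6.37), while the non-occluded (6.88) and control (7.11) means lay above it. Whether Bmp15 is expressed in the artery wall was not tested. Among 6 other receptors and co-receptors 2 fell and none rose. Hjv, a co-receptor that the array lists under an older symbol, was 5.88 to 6.08 in occluded, 6.11 to 6.56 in non-occluded and 6.56 to 7.33 in control MCAs. The 3 groups did not overlap, and Hjv was lower than in control MCAs by 1.01 in occluded MCAs (SE 0.12, adjusted p = 3.3e-06) and by 0.67 in non-occluded MCAs (SE 0.12, adjusted p = 0.0034). A non-overlap in the lower direction compared with control MCAs was found for 12.6% of all genes in occluded and 1.81% in non-occluded MCAs. The occluded (5.98) and non-occluded (6.32) means of Hjv lay under the limit of the dimmest probe sets, and the control mean (6.99) lay above it. Acvr1, the type I receptor ALK2, fell by 0.27 in occluded compared with control MCAs (SE 0.09, adjusted p = 0.021), a call that was lost without occluded F8, F10 or F15 (adjusted p = 0.051 to 0.061).

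Other target genes of BMP signaling moved in both directions, with 2 of 9 higher and 2 lower in occluded compared with control MCAs. Hey2, a repressor that also answers to Notch, was 9.11 to 10.02 in occluded MCAs, against 10.21 to 10.59 in non-occluded and 10.11 to 10.65 in control MCAs. It fell by 0.93 compared with control MCAs (SE 0.13, 1.90-fold lower, adjusted p = 2.4e-05). Tmem100, which depends on ALK1 in mouse endothelium, was 8.33 to 9.37 in occluded, 7.66 to 8.49 in non-occluded and 7.90 to 8.29 in control MCAs, and it rose by 0.88 compared with control MCAs (SE 0.18, 1.85-fold, adjusted p = 0.00057). Msx1, a homeobox gene, fell by 0.46 (SE 0.12, adjusted p = 0.0049). Compared with non-occluded MCAs Hes1, a repressor best known as a Notch target, rose by 0.57 (SE 0.13, adjusted p = 0.0022). Of the 3 E proteins that ID proteins bind, Tcf3 fell by 0.23 (SE 0.07, adjusted p = 0.0095) and Tcf4 by 0.26 (SE 0.09, adjusted p = 0.024) in occluded compared with control MCAs, and Tcf12 did not pass. The call of Tcf4 was lost without control F16 or F22 or occluded F10 or F15 (adjusted p = 0.050 to 0.060). Id4, the other gene of the ID family, did not pass in any comparison, with a change of -0.18 compared with control MCAs (95% interval -0.44 to 0.08).

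**Figure D5:**
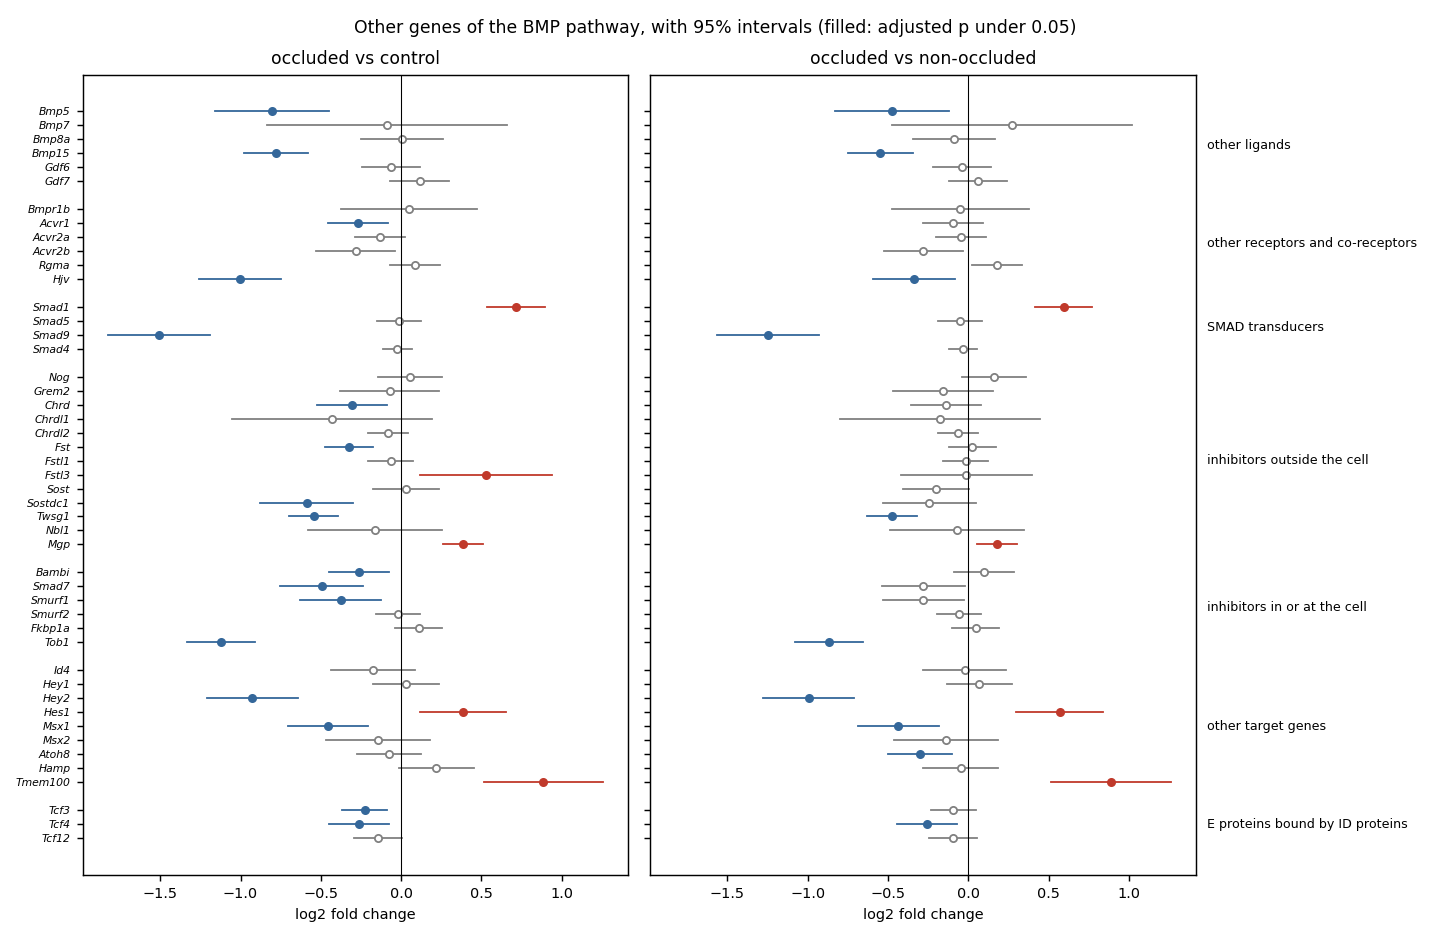
Log2 fold changes (x axis) of the 47 other pathway genes, grouped by role, in occluded compared with control MCAs and compared with non-occluded MCAs, with 95% intervals from limma. Filled points have an adjusted p under 0.05, and 17 genes lie lower and 5 higher in the left panel.

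The genes whose values followed those of Smad6 and the ID genes most closely were found over the 17 arrays with the group means removed. This is a description, since all arrays share their normalization and each artery its RNA. Picking the 3 closest out of all genes tested also gives high values by the choice alone, and how high was not tested. For Smad6 they were Slc17a8 (Pearson r = 0.94), Reck (0.90) and Ctdsp1 (0.90), and its closest member was Acvrl1 (0.77), followed by Id1 (0.64). For Id1 they were Usp4 (0.90), Tsc22d3 (0.86) and the unnamed RGD1308299 (0.82). For Id2 they were Oxsr1 (0.92), Gng12 (0.89) and Myo1e (0.89), while Bmp6 (-0.81) and Bmp4 (-0.73) ran against it. For Id3 they were Ftsj1, Kab and Ppid (0.82 each). The 3 ID genes correlated with each other at 0.19 to 0.47. Among control arrays, Bmp6 was 11.69 to 12.00 in F16, F22 and F26, against 11.03 to 11.17 in F4, F21 and F36. In the same order, Bmp4 was 8.63 to 9.02 and 7.95 to 8.27, and Id2 5.77 to 6.10 and 6.14 to 6.29. The mean of the astrocyte markers was 7.88 to 8.41 and 6.62 to 7.21. That of the smooth muscle markers was 11.93 to 12.02 and 12.27 to 12.31. The leading number in the array labels was also higher for F16, F22 and F26 than for F4, F21 and F36. What this number stands for is not given. Among the control arrays it cannot be told apart from tissue content, and the part of either in these correlations was not tested.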

How the data were processed

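Gene expression was measured in 17 MCAs, with 1 Affymetrix rat gene 2.0 ST array per artery. The authors made the deposited log2 values with RMA (quantile normalization) in Expression Console 1.1.2 and left out probe sets near the negative controls, separately for each comparison. The number of arrays limits the precision. The authors' deposited columns of their own comparisons (p-value, q-value, fold change and SAM score) were not used. The fit took the 13809 of 14143 probe sets with values on all 17 arrays. No source used here names the genome build of the array annotation.

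The brightest probe set with a single symbol stood for a gene. limma 3.58.1 (R 4.3.3) fitted 3 group means to the 17 arrays, with no block and a Benjamini-Hochberg adjusted p threshold of 0.05. Tables and plots were made in Python 3.11.15 with pandas 2.3.3 and matplotlib 3.10.9, and the fit was tested on simulated data. Alternatives were SAM (100 permutations), rat blocks, other scaling, filters and probe set rules, and leaving out each array. The pairing of arteries comes from the labels, which name the same rat. Same-rat deviations from the group means correlated at 0.161 to 0.489, beside -0.301 to 0.337 between arteries of different rats. Of the 5 occluded arteries 4 were closest to their own rat.

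The 10 genes and all lists were chosen with earlier results of these data known. Named were all 10 genes, up to 3 genes per pathway list and comparison with the smallest p, and the 3 genes closest to each of Smad6, Id1, Id2 and Id3. Smad5, Smad4, Tcf12 and Id4, which did not pass the test, were named outside this rule. Marker lists gave, in occluded compared with control MCAs, 1 higher and 3 lower of 5 smooth muscle genes, 0 and 3 of 6 endothelial, 2 and 1 of 6 pericyte, 0 and 2 of 6 fibroblast, 1 and 0 of 5 astrocyte, 2 and 0 of 3 neuron, 1 and 1 of 6 oligodendrocyte, 2 and 1 of 6 macrophage and microglia, 1 and 0 of 2 neutrophil, and 0 of 1 red blood cell, 5 platelet and 2 T cell genes. Promoters are from RefSeq (GRCr8).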

Additional observations from a re-analysis of the deposited data

Results flagged for a closer look

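Each group of arrays was searched for 1 array far from the rest, by the gap to its nearest neighbor over the range of the group. Of 30 groups of values (10 genes in 3 groups) 2 held such an array, and chance gives about 1 in 20. Bmp4 was 8.94 in the occluded artery of rat F8, a gap of 0.744 to the next occluded array and 0.764 of the group's range. Without that artery the change of Bmp4 in occluded compared with non-occluded MCAs was 0.16 (SE 0.18, adjusted p = 0.55 from limma). Bmpr2 was 10.41 in the control artery of rat F26, a gap of 0.305 and 0.742 of the range. Without it Bmpr2 rose by 0.43 in occluded compared with control MCAs (SE 0.06, adjusted p = 1.7e-05).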

How the results depend on the processing

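No change that passed the test reversed under any alternative, among the genes named here. Some that did not pass changed sign, such as Bmp6 in occluded compared with control MCAs (-0.18 to 0.02 with 1 array left out). With at least a 1.5-fold change asked for, 1 of the 10 genes was higher and 2 lower in occluded compared with control MCAs and 1 higher and 1 lower compared with non-occluded MCAs, while of the 47 other pathway genes 2 and 7, 2 and 3, and in non-occluded compared with control MCAs 0 and 1 were higher and lower. SAM at a q of 0 called 2 of the 10 genes higher (Id3 and Bmpr2) and 1 lower (Id2) compared with control MCAs and likewise 2 higher and 1 lower compared with non-occluded MCAs, and of the other genes 3 higher and 7 lower, 1 higher and 5 lower, and in non-occluded compared with control MCAs 0 higher. SAM called 16.1%, 1.35% and 11.8% of all genes in occluded compared with control, non-occluded compared with control and occluded compared with non-occluded MCAs, and at least 1.5-fold changes 13.8%, 0.932% and 9.26%, beside 42.1%, 3.91% and 32.9% with limma alone. Without the dimmest 25% of probe sets 1 of the 10 genes was lower in occluded compared with control MCAs, since Id2 was then not tested. With only the 2 groups fitted 1 of the 10 genes (Acvrl1) was higher in non-occluded compared with control MCAs and 0 of the other genes, as with cyclic loess scaling. The cause of these shifts was not tested.

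Leaving out 1 array gave 3 to 4 of the 10 genes higher and 2 lower in occluded compared with control MCAs, 3 higher and 2 to 3 lower compared with non-occluded MCAs, and 0 higher and 0 to 1 lower in non-occluded compared with control MCAs. Of the other genes 3 to 5 were higher and 13 to 17 lower, 3 to 5 and 7 to 11, and 0 to 1 and 2 to 3. Mgp in non-occluded compared with control MCAs (0.21, adjusted p = 0.048) was lost in 14 of these fits. In occluded compared with non-occluded MCAs Bmp5 was lost in 8 and Hjv and Tcf4 in 6 each. With the rat as a replicate block the pairing changed the call of Bmp4 (0.40 as a fixed block, adjusted p = 0.026, against 0.36 and 0.10 as a random one), Smad7 (-0.28) and Smurf1 (-0.31 as a random and -0.38 as a fixed block) and no other call of the genes named here.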
